A study of Mus musculus with 15 samples.

Results

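The genes of amyloid precursor processing were taken as 9 rows of the deposited table, selected by symbol and not by their values: App, Aplp1, Aplp2, Bace1, Bace2, Psen2, Ncstn, Itm2b and Itm2c. The table held 20610 genes. All 9 were found once, and all 9 passed the filter on low values described below. Transcript abundance had been measured by polyA RNA-seq as transcripts per 1000000 (TPM), which is corrected for transcript length, so that levels of different genes can be set side by side. The cells were neurons, astrocytes and microglia of male wild-type (WT) mice at postnatal day 28, taken from the cortex by magnetic cell isolation, with 5 libraries for each cell type (n = 5) and 15 in all. No treatment or altered allele is named in the labels. The labels do not say from which animal a library came or whether animals were pooled, so p-values measure the spread between libraries, which may be technical.

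App is the membrane protein from which amyloid-beta is cut. Cleavage by an alpha-secretase such as Adam10 within the amyloid-beta stretch releases a large soluble ectodomain and prevents formation of the peptide. Cleavage by the beta-secretase Bace1 instead, followed by the gamma-secretase complex in the membrane, releases amyloid-beta, the main component of plaques in Alzheimer's disease. The gamma-secretase complex consists of a catalytic presenilin such as Psen2, the substrate-binding subunit nicastrin (Ncstn), an Aph1 subunit and Psenen. Aplp1 and Aplp2 are relatives of App that pass through the same kind of processing but lack the amyloid-beta sequence. The small membrane proteins Itm2b, also called Bri2, and Itm2c, or Bri3, bind App and are known as inhibitors of its processing, and mutations of human ITM2B cause familial British and Danish dementia.

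The marker transcripts of each labelled cell type were present in its libraries, and those of other cells were present as well. The 8 neuron markers summed to 699 to 1516 TPM in neuron libraries, 73.4 to 224 TPM in astrocyte libraries and 10.6 to 100.9 TPM in microglia libraries. The 8 astrocyte markers summed to 18156 to 21734 TPM in astrocyte libraries, 92.1 to 242 TPM in neuron libraries and 263 to 594 TPM in microglia libraries. The 8 microglia markers summed to 47267 to 75184 TPM in microglia libraries, 57.3 to 97.7 TPM in neuron libraries and 130 to 169 TPM in astrocyte libraries. Markers of border macrophages, 6 genes, summed to 960 to 1568 TPM in microglia libraries, 24.2 to 44.55 TPM in neuron libraries and 33.3 to 60.9 TPM in astrocyte libraries. The part of border macrophages in the microglia values below was not tested. The neuron libraries held 21923 to 34828 TPM of the 8 endothelial markers, far above their own neuron markers. Astrocyte libraries held 1464 to 1988 TPM and microglia libraries 291 to 612 TPM. In neuron libraries Ly6c1 made up most of this sum, at 20119 to 31922 TPM. Cldn5 was at 977 to 1983 TPM there, while Pecam1, Cdh5, Tek and Kdr averaged 10.1 to 41.6 TPM. Snap25, the most abundant of the neuron markers, averaged 475 TPM. The 7 mural markers, of pericytes and smooth muscle, likewise summed to 2374 to 4494 TPM in neuron libraries, 1522 to 2200.4 TPM in astrocyte libraries and 87.3 to 216 TPM in microglia libraries. Alas2, a gene of red cell precursors, was at 188 to 991 TPM in neuron libraries, 4.15 to 10.3 TPM in astrocyte libraries and 1.16 to 6.13 TPM in microglia libraries. Below, "neurons" therefore stands for the libraries labelled as neurons, in which summed vascular markers exceeded summed neuron markers. The 8 markers of mature oligodendrocytes varied most, of these lists, between libraries of one cell type. They summed to 8349, 10251, 117, 151 and 1508 TPM in neuron libraries 1 to 5, and to 432 to 3788 TPM in astrocyte libraries. In microglia libraries 1 to 5 they summed to 69064, 51028, 6552, 246 and 8076 TPM. No gene of these lists was at 0 in all libraries of any cell type. Microglia libraries 1 and 2 stood apart in oligodendrocyte transcripts, and so did neuron libraries 1 and 2. No label names a batch for these numbers. Microglia results below that lost a call, changed sign or moved by over 1.5 times without microglia libraries 1 and 2 are given with and without them.

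App transcripts were most abundant in the neuron libraries. App was at 209, 181, 305, 324 and 307 TPM in neuron libraries 1 to 5, at 43.6, 38.7, 60.2, 53.1 and 46.1 TPM in astrocyte libraries, and at 90.4, 117, 56.7, 33.6 and 45.4 TPM in microglia libraries. The lowest neuron library lay above every astrocyte and microglia library, while the astrocyte and microglia ranges overlapped. Tests were made with limma on log2(TPM + 1) over 13351 genes, those that reached 1 TPM in 5 or more libraries. A gene was called different at a Benjamini-Hochberg adjusted p below 0.05 and a difference of at least 2-fold on that scale, on which the folds of rare transcripts come out too small. App was 5.32-fold higher in neurons than in astrocytes (log2 difference 2.41, SE 0.270, adjusted p = 7.24e-07). It was 4.11-fold higher in neurons than in microglia (log2 difference 2.04, SE 0.270, adjusted p = 2.69e-06). Between astrocytes and microglia App was not called (log2 difference -0.37, 95% interval -0.94 to 0.20, adjusted p = 0.224). In these bulk libraries a larger share of one cell type and more RNA per cell cannot be told apart. Without microglia libraries 1 and 2, in which App was highest among microglia, the neuron to microglia difference was 2.52 on the log2 scale, and that of astrocytes to microglia was 0.11, with the opposite sign. Endothelial markers, summed mural markers and Alas2 were also highest in the neuron libraries, and their part in the App result was not tested. Of the mural markers, Pdgfrb and Abcc9 averaged 12.6 and 4.20 TPM in neuron libraries and 18.8 and 4.88 TPM in astrocyte libraries.

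Aplp1, a precursor-family member known from neurons, was not highest in the neuron libraries. Its levels were 137, 129, 103, 91.7 and 167 TPM in neuron libraries 1 to 5 and 275, 262, 304, 289 and 335 TPM in astrocyte libraries. Every astrocyte library was above every neuron library. Summed vascular markers exceeded summed neuron markers in the neuron libraries, and the part of vascular transcripts in this Aplp1 difference was not tested. In microglia libraries 1 to 5 Aplp1 was at 300.3, 386, 80.1, 6.14 and 61.7 TPM, a spread that covered both other cell types. The order of the microglia libraries by Aplp1 nearly followed their summed oligodendrocyte markers, with libraries 1 and 2 highest in both and library 4 lowest in both. In microglia libraries 1 to 5 the 8 neuron markers summed to 86.55, 100.9, 18.1, 10.6 and 76.5 TPM. The 7 oligodendrocyte precursor markers summed to 133, 162, 39.5, 10.7 and 35.1 TPM. Both sums were likewise highest in libraries 1 and 2 and lowest in library 4. Most of the precursor sum was Olig1, at 99.2, 118.5, 26.8, 3.83 and 22.6 TPM. Gpr17, Olig2 and Sox10 had the same highest and lowest libraries. Pdgfra, at 0.21, 0.33, 0.43, 0.80 and 0.49 TPM, Cspg4 and C1ql1 did not. The part of oligodendrocyte, oligodendrocyte precursor or neuron transcripts in the microglial Aplp1 values was not tested.

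This microglial spread entered the shared error of the fit, in which the Aplp1 difference between neurons and astrocytes was not called (log2 difference -1.24, SE 0.709, adjusted p = 0.149). With only the neuron and astrocyte libraries in the fit the same difference was called (adjusted p = 7.84e-06), as it was without microglia library 4 (adjusted p = 0.00878) and without microglia libraries 1 and 2 (adjusted p = 0.0269). Between neurons and microglia Aplp1 differed by 0.56 on the log2 scale (adjusted p = 0.501). That difference was -0.33 without microglia library 4 and 1.90, now called, without microglia libraries 1 and 2 (adjusted p = 0.00411). Aplp1 was called 3.48-fold higher in astrocytes than in microglia (log2 difference 1.80, SE 0.709, adjusted p = 0.0306), although the ranges overlapped. Without microglia library 4 the difference was 0.91 and no longer called. It was 3.14 (adjusted p = 4.93e-05) without microglia libraries 1 and 2.

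Aplp2, the broadly expressed relative, was lower in microglia than in both other cell types. It was at 159.8, 151, 246, 238 and 180.2 TPM in neuron libraries 1 to 5, at 219, 179, 323, 239.9 and 235 TPM in astrocyte libraries, and at 57.9, 52.0, 44.8, 38.3 and 50.1 TPM in microglia libraries. The neuron and astrocyte ranges overlapped, and neither overlapped with microglia. Aplp2 was 3.91-fold higher in neurons than in microglia (adjusted p = 1.42e-08) and 4.80-fold higher in astrocytes than in microglia (adjusted p = 1.72e-09). The difference between neurons and astrocytes was -0.29 on the log2 scale (95% interval -0.66 to 0.07, adjusted p = 0.157). Summed mural markers were also lowest in microglia. The 5 fibroblast and meningeal markers summed to 82.1 to 203 TPM in neuron, 144 to 179 TPM in astrocyte and 12.1 to 29.9 TPM in microglia libraries. The part of vascular and fibroblast transcripts in the Aplp2 result was not tested.

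**Figure D1:**
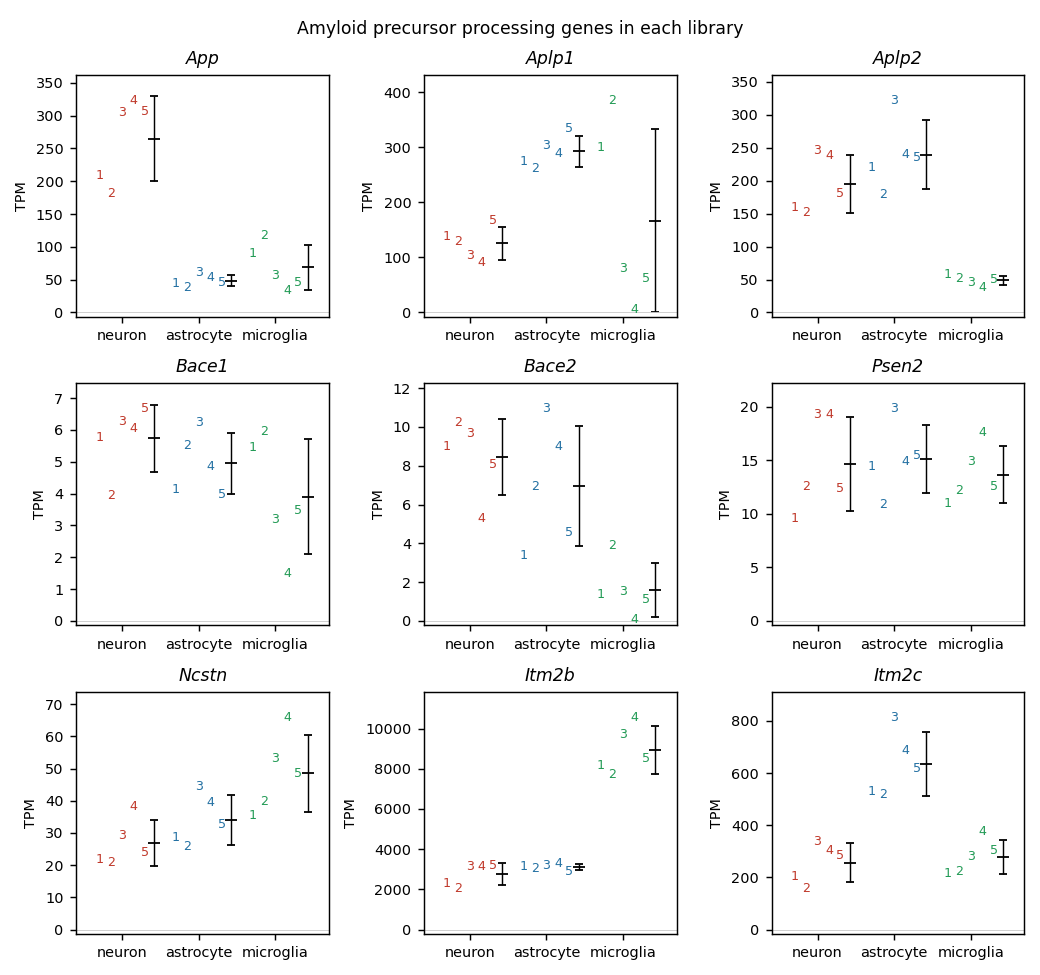
TPM of each of the 9 genes in the neuron, astrocyte and microglia libraries, on a linear axis with its own range for each gene. Digits are library numbers, and the bar is the mean ± SD of 5 libraries; App sits at 181 TPM or more in every neuron library, Itm2b at 7689.9 TPM or more in every microglia library, and Aplp1 runs between 6.14 and 386 TPM within microglia.

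Within the APP family the share of App differed between the cell types. App, Aplp1 and Aplp2 together were at 586 ± 94.7 TPM in neurons, 580.2 ± 78.1 TPM in astrocytes and 284 ± 206 TPM in microglia (mean ± SD, n = 5 each). App made up 41.3, 39.3, 46.6, 49.5 and 46.9% of that sum in neuron libraries 1 to 5. In astrocyte libraries it made up 8.10, 8.06, 8.77, 9.13 and 7.49%. In microglia libraries it made up 20.2, 21.0, 31.2, 43.1 and 28.9%, so that 1 microglia library lay within the neuron range. Aplp1 held 22.1 ± 6.62% of the family in neurons, 50.8 ± 4.24% in astrocytes and 45.6 ± 24.99% in microglia (SD, n = 5 each). Shares were compared with a two-sided exact permutation test over libraries, adjusted over 9 tests, in which 5 against 5 libraries cannot give a p below 0.00794. The App share was 36.4 percentage points higher in neurons than in astrocytes and differed by -20.6 points between astrocytes and microglia (exact permutation test, adjusted p = 0.0102 for both). It was 15.9 points higher in neurons than in microglia (exact permutation test, adjusted p = 0.0268). Over the 5 pairs of same-numbered neuron and microglia libraries the share was higher in neurons in 5 of 5, by 6.43 to 21.1 points, but an exact sign-flip permutation test over 5 pairs cannot give a p below 0.0625, which is the p it gave. The call of the free permutation test was lost when any 1 of neuron libraries 3, 4 and 5 or microglia libraries 1, 2, 3 and 5 was left out (adjusted p = 0.0536 in each case), and without microglia libraries 1 and 2 the difference was 10.3 points (adjusted p = 0.121).

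**Figure D2:**
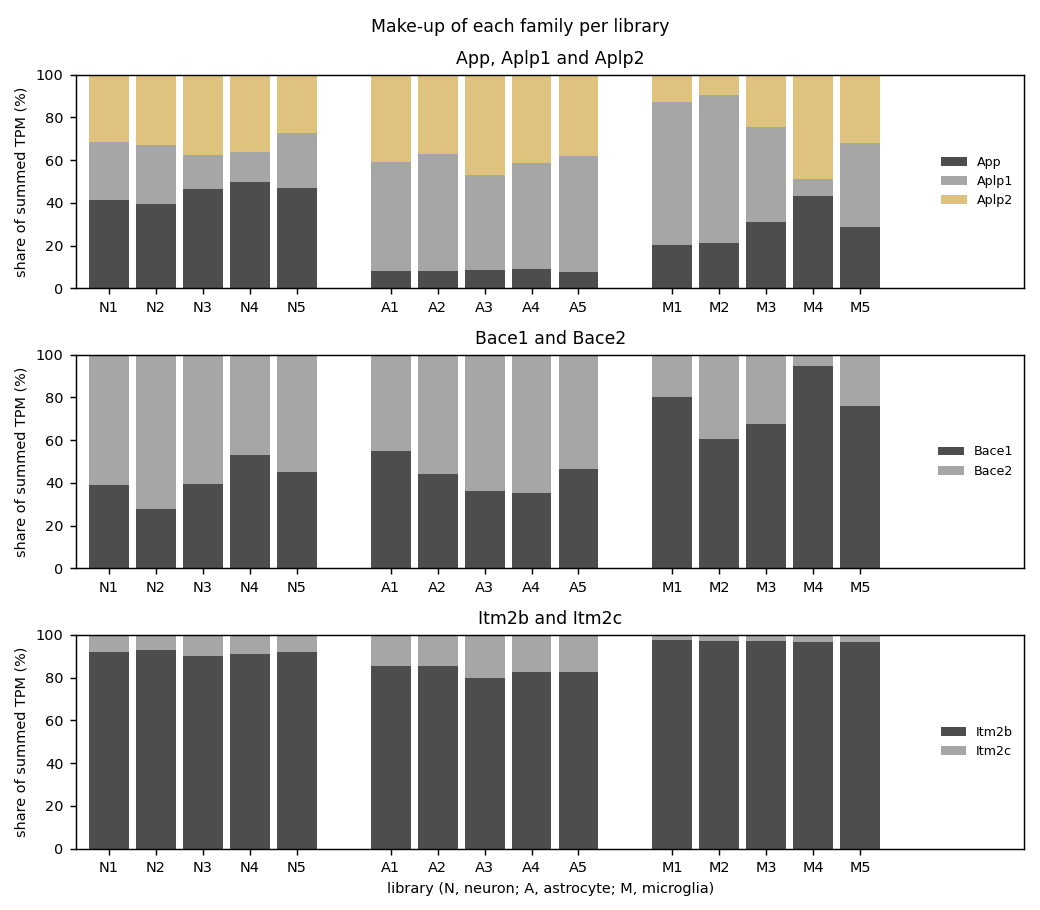
Stacked bars give, for each library, the percentage of summed TPM held by the members of the App, Bace and Itm2 families. The App part of its family is at 39.3 to 49.5% in neurons, 7.49 to 9.13% in astrocytes and 20.2 to 43.1% in microglia.

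The sequences upstream of the precursors and of Itm2b are shown because these genes differ in the cell type in which they were most abundant. RefSeq promoter windows on GRCm38.p6 were found for 7 of the 9 genes (App, Aplp1, Aplp2, Psen2, Ncstn, Itm2b and Itm2c). The stretches below lie directly before the annotated start and read 5′ to 3′ on the minus strand of the genome, with each GC box (GGGCGG or its reverse complement CCGCCC) in capitals. They span chr16:85173767-85173957 for App, chr7:30445583-30445832 for Aplp1, chr9:31211849-31212098 for Aplp2 and chr14:73385290-73385539 for Itm2b.
App: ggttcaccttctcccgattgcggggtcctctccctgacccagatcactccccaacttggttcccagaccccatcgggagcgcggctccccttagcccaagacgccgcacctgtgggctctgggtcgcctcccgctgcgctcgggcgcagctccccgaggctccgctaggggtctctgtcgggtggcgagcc
Aplp1: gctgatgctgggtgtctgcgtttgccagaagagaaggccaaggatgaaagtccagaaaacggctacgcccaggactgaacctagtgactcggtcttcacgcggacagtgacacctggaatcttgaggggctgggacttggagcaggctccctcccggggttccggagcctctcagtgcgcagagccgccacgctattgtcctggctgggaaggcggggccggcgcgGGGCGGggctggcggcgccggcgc
Aplp2: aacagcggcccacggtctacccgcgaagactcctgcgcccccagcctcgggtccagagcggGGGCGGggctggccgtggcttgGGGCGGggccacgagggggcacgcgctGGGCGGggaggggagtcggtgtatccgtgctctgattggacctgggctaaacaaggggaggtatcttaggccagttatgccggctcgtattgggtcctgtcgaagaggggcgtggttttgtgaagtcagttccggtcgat
Itm2b: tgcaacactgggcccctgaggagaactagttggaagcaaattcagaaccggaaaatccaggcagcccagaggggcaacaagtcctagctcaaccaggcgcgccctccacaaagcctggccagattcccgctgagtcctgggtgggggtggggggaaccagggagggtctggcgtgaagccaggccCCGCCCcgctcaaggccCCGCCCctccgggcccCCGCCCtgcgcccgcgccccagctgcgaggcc
All 4 stretches are rich in G and C. In the 250 bases before the RefSeq start, G and C made up 70.8% for App, 66% for Aplp1, 66.4% for Aplp2 and 68.8% for Itm2b, against a median of 52.4% over 32851 promoter windows of that length. These windows held 23, 20, 22 and 14 CpG pairs, against a median of 6. A GC box, the motif bound by Sp1-type factors, was present 1 time each for App and Aplp1 and 3 times each for Aplp2 and Itm2b, and 32.7% of all windows held at least 1. The App copy lies outside the 191 bases printed, which end before the gene start of both annotations. A TATA box (TATAAA or TTTATA) was found in none of the windows of the 7 genes and in 12.4% of all windows. A CCAAT box (CCAAT or ATTGG) was found 2 times for Aplp2, not for App, Aplp1 or Itm2b, and in 33.8% of all windows. A PU box (GAGGAA or TTCCTC) was in none of the 4 windows and in 23.3% of all windows. The 4 windows thus share a high G and C content and differ in GC boxes, CCAAT boxes and CpG pairs. The mean transcript levels were highest in neurons for App, in astrocytes for Aplp1 and Aplp2 and in microglia for Itm2b. Whether these features relate to the transcript levels was not tested.

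The beta-secretase Bace1 was at low levels in all 3 cell types and was called in no comparison. It was at 5.76, 3.94, 6.25, 6.03 and 6.67 TPM in neuron libraries 1 to 5, at 4.14, 5.52, 6.23, 4.86 and 3.98 TPM in astrocyte libraries, and at 5.44, 5.95, 3.18, 1.49 and 3.46 TPM in microglia libraries. All 3 ranges overlapped. The log2 difference was 0.18 between neurons and astrocytes (95% interval -0.32 to 0.68, adjusted p = 0.553), 0.53 between neurons and microglia (0.03 to 1.03, adjusted p = 0.0563) and 0.35 between astrocytes and microglia (-0.15 to 0.85, adjusted p = 0.188). As for App and Aplp1, microglia libraries 1 and 2 were the highest of their cell type and library 4 the lowest. Without microglia libraries 1 and 2 the neuron to microglia difference was 0.89 (adjusted p = 0.0025, still under 2-fold). Without all libraries numbered 1 and 2 it was 1.02 and called (adjusted p = 0.0030). Summed oligodendrocyte, oligodendrocyte precursor and neuron markers were also highest in microglia libraries 1 and 2 and lowest in library 4. Of the precursor list, Pdgfra, Cspg4 and C1ql1 did not follow that order. The part of oligodendrocyte, oligodendrocyte precursor or neuron transcripts in the microglial Bace1 values was not tested.

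Its relative Bace2, which can cut App inside the amyloid-beta stretch, was lower in microglia than in the other cells. It was at 9.01, 10.2, 9.64, 5.29 and 8.09 TPM in neuron libraries 1 to 5, at 3.40, 6.92, 10.9, 8.99 and 4.54 TPM in astrocyte libraries, and at 1.35, 3.89, 1.53, 0.0800 and 1.10 TPM in microglia libraries. Neuron and microglia libraries did not overlap, whereas microglia library 2 reached above the lowest astrocyte library. Bace2 was 4.01-fold higher in neurons than in microglia (adjusted p = 3.86e-05) and 3.23-fold higher in astrocytes than in microglia (adjusted p = 0.000209), and neurons and astrocytes differed by 0.31 on the log2 scale (95% interval -0.39 to 1.02, adjusted p = 0.449), or by -0.040 without all libraries numbered 1 and 2. Bace1 accordingly held 40.9 ± 9.35% of the summed Bace1 and Bace2 transcripts in neurons, 43.5 ± 8.13% in astrocytes and 75.8 ± 13.1% in microglia (SD, n = 5 each). The Bace1 share was lower in neurons and in astrocytes than in microglia (exact permutation test, adjusted p = 0.0102 for both), and neurons and astrocytes differed by -2.55 points (exact permutation test, adjusted p = 0.683). Against microglia it was lower in neurons in 5 of 5 same-numbered pairs (exact sign-flip permutation test, p = 0.0625, the smallest it allows). Both genes together were at 14.2 ± 1.72 TPM in neurons, 11.9 ± 3.95 TPM in astrocytes and 5.49 ± 3.06 TPM in microglia (SD, n = 5 each). Counting error at such levels cannot be given because TPM keeps no read depth. The part of vascular transcripts in the Bace1 and Bace2 values of the neuron libraries was not tested.

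Of the gamma-secretase genes among the 9, the presenilin Psen2 had overlapping ranges in the 3 cell types, and neither it nor Ncstn was called in a comparison. Psen2 was at 9.60 to 19.3 TPM in neurons, with a median of 12.6 TPM, at 10.9 to 19.8 TPM in astrocytes with a median of 14.9 TPM, and at 10.9 to 17.6 TPM in microglia with a median of 12.5 TPM. Its log2 differences were -0.07 for neurons against astrocytes (95% interval -0.49 to 0.35), 0.07 for neurons against microglia (-0.35 to 0.49) and 0.13 for astrocytes against microglia (-0.29 to 0.55). The adjusted p-values were 0.797, 0.783 and 0.561, and these intervals lie within 2-fold. The sign of the Psen2 difference turned with the scaling in all 3 comparisons: with median-of-ratios scaling it was 0.0027, -0.51 and -0.51.

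Nicastrin transcripts were lowest in neurons and highest in microglia by their means. Ncstn was at 21.8, 20.8, 29.3, 38.2 and 24.0 TPM in neuron libraries 1 to 5, at 28.5, 25.8, 44.5, 39.4 and 32.5 TPM in astrocyte libraries, and at 35.4, 39.8, 53.2, 66 and 48.5 TPM in microglia libraries. All ranges overlapped. The difference was -0.83 on the log2 scale between neurons and microglia (SE 0.199, adjusted p = 0.0012) and -0.49 between astrocytes and microglia (adjusted p = 0.0347), both under the 2-fold limit, and -0.34 between neurons and astrocytes (adjusted p = 0.155). Microglia libraries 1 and 2 were here the lowest of their cell type, and without them the neuron to microglia difference was -1.05 and called (adjusted p = 0.00035). The call against microglia also depended on the scaling, and the median log2 difference over all tested genes was 0.48 for neurons against microglia and 0.57 for astrocytes against microglia, and -0.03 for neurons against astrocytes. Median-of-ratios scaling moved the medians of the comparisons with microglia by -0.51 and -0.54, and Ncstn was then called lower in neurons (-1.44) and in astrocytes (-1.17) than in microglia.

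**Figure D3:**
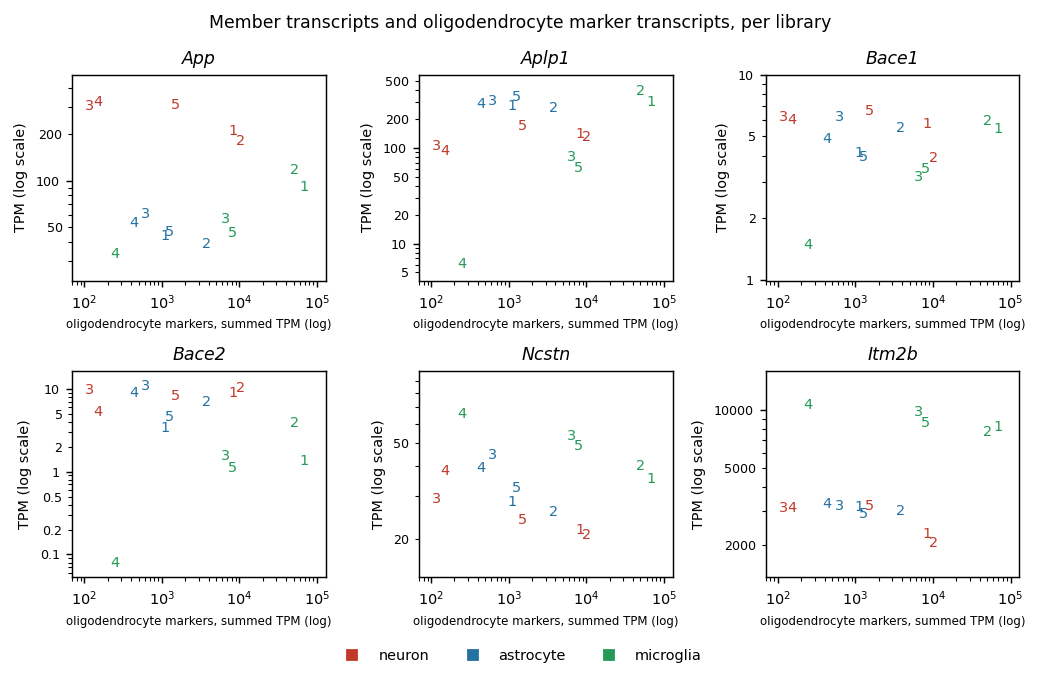
TPM of 6 of the genes in each library, on a log axis, against the summed TPM of the 8 mature oligodendrocyte markers in the same library, also on a log axis. Digits are library numbers and colours are cell types. Among microglia, library 4 is lowest and libraries 1 and 2 highest for App, Aplp1 and Bace1. For Ncstn and Itm2b library 4 is highest and libraries 1 and 2 lowest. Summed neuron and oligodendrocyte precursor markers, not drawn here, are also highest in microglia libraries 1 and 2 and lowest in library 4. Pdgfra, Cspg4 and C1ql1 of the precursor list do not follow that order.

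Itm2b was the most abundant of the 9 genes in every library and was highest in microglia. Its levels were 2294, 2054, 3123, 3128 and 3184 TPM in neuron libraries 1 to 5, 3138, 3017, 3193, 3276 and 2907 TPM in astrocyte libraries, and 8174, 7689.9, 9688, 10569 and 8523 TPM in microglia libraries. The microglia libraries lay apart from all others, and the neuron and astrocyte ranges overlapped. Itm2b was 3.27-fold lower in neurons than in microglia (log2 difference -1.71, SE 0.142, adjusted p = 7.66e-09) and 2.86-fold lower in astrocytes than in microglia (log2 difference -1.51, adjusted p = 2.99e-08). Neurons and astrocytes differed by -0.19 (95% interval -0.49 to 0.10, adjusted p = 0.261), and by 0.011 without all libraries numbered 1 and 2. Without microglia libraries 1 and 2 the differences from microglia were -1.82 for neurons and -1.62 for astrocytes.

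Itm2c had a different distribution and was highest in astrocytes. It was at 202, 157, 336, 303 and 283 TPM in neuron libraries 1 to 5, at 530.1, 517, 815, 687 and 619 TPM in astrocyte libraries, and at 216, 222, 281, 375 and 302 TPM in microglia libraries. No astrocyte library overlapped with either other cell type, and the neuron and microglia ranges did overlap. Itm2c was 2.52-fold lower in neurons than in astrocytes (log2 difference -1.34, SE 0.206, adjusted p = 2.80e-05) and 2.28-fold higher in astrocytes than in microglia (log2 difference 1.19, SE 0.206, adjusted p = 5.31e-05). The second difference was under 2-fold with median-of-ratios scaling (0.50, adjusted p = 0.00658) and without microglia libraries 1 and 2 (0.98, adjusted p = 0.00099). Neurons and microglia differed by -0.15 (95% interval -0.58 to 0.28, adjusted p = 0.537).

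As a share of the 2 genes, Itm2b held 91.6 ± 0.969% in neurons, 83.1 ± 2.43% in astrocytes and 97.0 ± 0.389% in microglia (SD, n = 5 each), with no overlap between the cell types. The differences were 8.48 points for neurons against astrocytes, -5.37 points for neurons against microglia and -13.8 points for astrocytes against microglia (exact permutation test, adjusted p = 0.0102 each). The neuron share was the lower one in 5 of 5 same-numbered pairs with microglia (exact sign-flip permutation test, p = 0.0625, the smallest it allows).

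Counted over the 9 genes, App was called higher and Itm2c lower in neurons than in astrocytes, 2 of 9, where 25.6% of all tested genes were called (12.9% higher and 12.7% lower in neurons). In neurons against microglia App, Aplp2 and Bace2 were called higher and Itm2b lower, 4 of 9, against 39.3% of all tested genes. In astrocytes against microglia Aplp1, Aplp2, Bace2 and Itm2c were called higher and Itm2b lower, 5 of 9, against 42.5% of all tested genes. These shares are near the background. The TPM ranges of 3, 4 and 3 of the 9 genes did not overlap in the 3 comparisons, beside 39%, 54.3% and 58.4% of all tested genes. Among all tested genes the calls against microglia were mostly in one direction, with 29.5% higher and 9.74% lower in neurons and 32.3% higher and 10.2% lower in astrocytes. With median-of-ratios scaling the higher share of these calls moved to 55.8% in neurons, against 75.2% as deposited, and to 53.4% in astrocytes, against 76.0% as deposited. The median log2 difference of the 9 genes was -0.19, 0.53 and 0.35 in the 3 comparisons, beside -0.03, 0.48 and 0.57 over all tested genes. Without microglia libraries 1 and 2 the numbers of genes called were 3, 6 and 4 of 9, beside 26.3%, 40.9% and 43.2% of all tested genes.

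**Figure D4:**
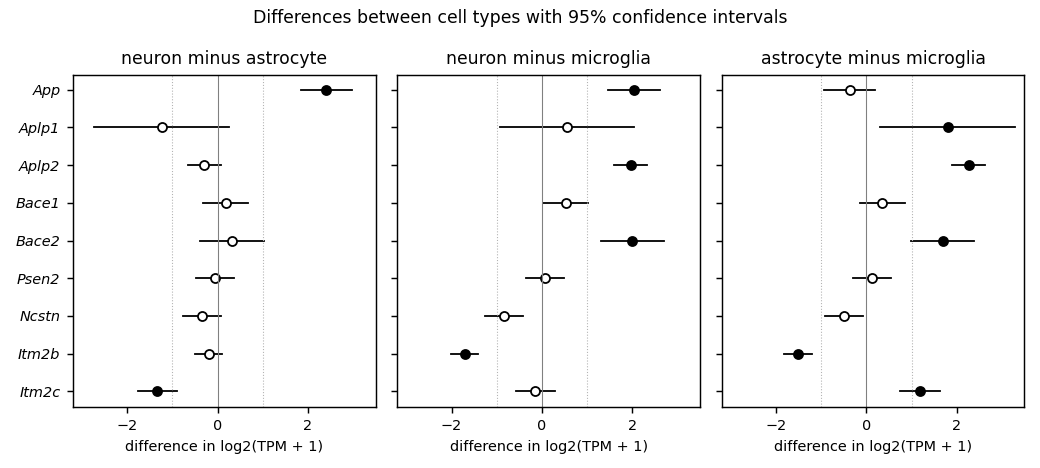
Log2 differences of the 9 genes on the log2(TPM + 1) scale in the 3 comparisons, with 95% intervals from limma; filled points were called and dotted lines mark 2-fold. App lies at 2.41 and 2.04 in the comparisons with neurons, Itm2b at -1.71 and -1.51 in those with microglia, and Psen2 near 0 in all 3.

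Ranked by mean TPM, the order of the 9 genes differed between the cell types below Itm2b, which led in each. In neurons App, Itm2c, Aplp2 and Aplp1 followed with ranges that overlapped between neighbours, then Ncstn, and then Psen2, Bace2 and Bace1 with overlapping neighbours. In astrocytes Itm2c stood second without overlap, Aplp1 and Aplp2 followed with overlapping ranges, and App and Ncstn overlapped at a lower level, above Psen2, Bace2 and Bace1. In microglia Itm2c, Aplp1, App, Aplp2 and Ncstn formed a run in which each neighbour overlapped, followed by Psen2 and, last, by Bace1 and Bace2. Bace2 was above Bace1 in 4 of 5 neuron libraries and 4 of 5 astrocyte libraries, while Bace1 was above Bace2 in 5 of 5 microglia libraries.

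The other genes of the pathway were read from a list of 46, of which 44 passed the filter. Mme, or neprilysin, at 0.0200 to 1.26 TPM, and the sorting receptor Sorcs1, at 0.0600 to 1.13 TPM, did not. In neurons against astrocytes 4 were called higher and 5 lower, which is 20.5% of the 44 beside 25.6% of all tested genes. In neurons against microglia 15 were higher and 4 lower, 43.2% beside 39.3%, and in astrocytes against microglia 19 were higher and 4 lower, 52.3% beside 42.5%. With median-of-ratios scaling the split became 10 higher and 9 lower for neurons against microglia and 12 higher and 8 lower for astrocytes against microglia. The numbers called were 9, 20 and 23 without microglia libraries 1 and 2, beside the same 26.3%, 40.9% and 43.2% of all tested genes.

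Of the 3 alpha-secretases, 1 was called, in both comparisons with microglia, where 39.3% (neurons) and 42.5% (astrocytes) of all tested genes were called. Adam17 was at 7.71 ± 0.606 TPM in neurons, 8.13 ± 2.46 TPM in astrocytes and 18.2 ± 5.14 TPM in microglia (SD, n = 5 each), and was 2.14-fold lower in neurons than in microglia (adjusted p = 8.75e-05) and 2.10-fold lower in astrocytes than in microglia (adjusted p = 0.000107). These folds lie close to the limit: without microglia library 4 they were 1.96 and 1.92, and without astrocyte library 2 that of astrocytes was 1.94. Adam10, the main alpha-secretase of neurons, was at 11.9 ± 2.07, 9.14 ± 3.40 and 17.3 ± 4.74 TPM in neuron, astrocyte and microglia libraries, and its difference of -0.88 between astrocytes and microglia was under 2-fold (adjusted p = 0.00271). Adam9 was at 5.98 ± 0.705, 5.28 ± 1.15 and 5.50 ± 0.770 TPM in the same order and was called in none.

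Among the other gamma-secretase subunits the Aph1 genes were those called. Aph1a was at 30.1 ± 10.6 TPM in neurons, 43.9 ± 9.15 TPM in astrocytes and 21.1 ± 3.63 TPM in microglia (SD, n = 5 each), and was 2.02-fold higher in astrocytes than in microglia (adjusted p = 0.000247). Aph1b was at 3.77 ± 1.11, 8.02 ± 2.50 and 1.35 ± 0.738 TPM in neuron, astrocyte and microglia libraries. It was higher in neurons than in microglia (2.06-fold, adjusted p = 0.00066) and in astrocytes than in microglia (3.86-fold, adjusted p = 6.83e-07). Aph1c was at 4.49 ± 1.45, 10.3 ± 3.03 and 8.09 ± 0.768 TPM and was 2.05-fold lower in neurons than in astrocytes (adjusted p = 0.00024). Aph1b and Aph1c are near-identical copies whose reads can be assigned to either, so both values are uncertain. The calls of all 3 genes lie near the 2-fold limit except Aph1b between astrocytes and microglia. Aph1a was 1.88-fold higher in astrocytes than in microglia without astrocyte library 3 or microglia library 1, and 1.90-fold without microglia libraries 1 and 2. Aph1b was 1.90- to 2.00-fold higher in neurons than in microglia without neuron library 5 or microglia library 1, 3 or 4. Aph1c was 1.91- and 1.87-fold lower in neurons than in astrocytes without neuron library 2 and astrocyte library 3. Psenen, at 254 ± 40.9, 269.8 ± 18.7 and 323 ± 42.03 TPM, was called in none.

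All 3 tested peptide-degrading enzymes were called higher in astrocytes than in microglia, as were 32.3% of all tested genes. Insulin-degrading enzyme, Ide, was at 11.8, 7.97, 10.6, 8.86 and 7.42 TPM in neuron libraries 1 to 5, at 15.1, 11.9, 62.6, 55.5 and 53.0 TPM in astrocyte libraries, and at 7.69, 8.73, 10.5, 5.03 and 7.10 TPM in microglia libraries. Astrocyte libraries 1 and 2 were thus close to the neuron libraries and libraries 3, 4 and 5 far above them. Ide was 3.25-fold lower in neurons than in astrocytes (adjusted p = 0.000939) and 3.85-fold higher in astrocytes than in microglia (adjusted p = 0.00016). Without all libraries numbered 1 and 2 these folds were 5.86 and 7.02. The endothelin-converting enzyme Ece1 was at 22.1 ± 6.25, 19.4 ± 11.8 and 1.88 ± 0.423 TPM in neuron, astrocyte and microglia libraries (SD, n = 5 each), and was 7.88-fold higher in neurons than in microglia (adjusted p = 1.04e-07) and 6.27-fold higher in astrocytes than in microglia (adjusted p = 4.04e-07). Ece2 was at 2.79, 6.21 and 0.542 TPM on average in neuron, astrocyte and microglia libraries. It was 2.49-fold higher in neurons than in microglia (adjusted p = 2.06e-05) and 4.81-fold higher in astrocytes than in microglia (adjusted p = 2.13e-08). Ece1 is also known from endothelium, whose markers were highest in the neuron libraries, and their part in its value was not tested.

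Of 14 tested sorting and trafficking genes, 2, 3 and 5 were called in the 3 comparisons (14.3%, 21.4% and 35.7%), below the 25.6%, 39.3% and 42.5% of all tested genes. Bin1, an endocytic adaptor, was at 25.5 ± 4.09 TPM in neurons, 14.2 ± 1.359 TPM in astrocytes and 339 ± 33.1 TPM in microglia (SD, n = 5 each). It was 12.9-fold lower in neurons than in microglia (adjusted p = 5.36e-14) and 22.3-fold lower in astrocytes than in microglia (adjusted p = 4.09e-15). Picalm, which helps assemble clathrin coats, was at 16.1 ± 2.79, 9.46 ± 0.887 and 49.2 ± 11.99 TPM in neuron, astrocyte and microglia libraries, and was lower than in microglia by 2.89-fold in neurons (adjusted p = 2.72e-07) and 4.70-fold in astrocytes (adjusted p = 1.57e-09). Both were called lower in neurons and in astrocytes than in microglia. Sorcs2 was at 0.582, 8.03 and 0.266 TPM on average in neuron, astrocyte and microglia libraries. It was 5.55-fold lower in neurons than in astrocytes (adjusted p = 1.38e-09) and 6.94-fold higher in astrocytes than in microglia (adjusted p = 8.31e-11). Sorl1, a receptor that routes App away from the endosome, was at 3.39 ± 1.01, 5.85 ± 1.61 and 1.54 ± 0.280 TPM and was 2.64-fold higher in astrocytes than in microglia (adjusted p = 5.45e-06). Sorcs3 was at 1.75, 0.444 and 0.110 TPM on average in neuron, astrocyte and microglia libraries. It was 2.45-fold higher in neurons than in microglia (adjusted p = 1.79e-07), a fold that comes out too small at such levels. Rtn4, a reticulon that binds Bace1, was 2.34-fold higher in neurons than in astrocytes (adjusted p = 1.69e-05).

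Of 9 adaptors that bind the cytosolic tail of App, 2, 6 and 7 were called in the 3 comparisons (22.2%, 66.7% and 77.8%), beside 25.6%, 39.3% and 42.5% of all tested genes. Apba2, also called Mint2, was at 13.8 ± 4.66 TPM in neurons, 50.6 ± 8.79 TPM in astrocytes and 2.04 ± 0.722 TPM in microglia (SD, n = 5 each). It was 3.57-fold lower in neurons than in astrocytes (adjusted p = 1.45e-06), 4.82-fold higher in neurons than in microglia (adjusted p = 4.85e-08) and 17.2-fold higher in astrocytes than in microglia (adjusted p = 1.27e-11). Dab1, an adaptor of reelin signalling, was at 8.83 ± 2.80, 37.1 ± 4.82 and 6.67 ± 6.14 TPM in neuron, astrocyte and microglia libraries, and was 4.0-fold lower in neurons than in astrocytes (adjusted p = 0.000741) and 6.61-fold higher in astrocytes than in microglia (adjusted p = 1.89e-05). Numb, an adaptor of endocytosis and Notch signalling, went the other way. It was at 20.3 ± 6.43, 13.8 ± 5.72 and 128 ± 40.6 TPM, 6.01-fold lower in neurons than in microglia (adjusted p = 3.68e-07) and 8.88-fold lower in astrocytes than in microglia (adjusted p = 2.46e-08). Of the Fe65 adaptors, Apbb1 was 3.93-fold (adjusted p = 0.00116) and Apbb2 2.46-fold (adjusted p = 3.69e-05) higher in neurons than in microglia. Mapk8ip1 was 4.35-fold higher in astrocytes than in microglia (adjusted p = 4.98e-05). Apbb1, Mapk8ip1 and Dab1 had, like Aplp1, microglia library 4 lowest (2.69, 0.580 and 0.910 TPM) and libraries 1 and 2 highest. Without microglia libraries 1 and 2, Apbb1 was 6.99-fold higher in neurons than in microglia, and astrocytes exceeded microglia 7.09-fold in Mapk8ip1 and 11.7-fold in Dab1.

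Of 6 other substrates of Bace1, 2 were called higher in neurons than in astrocytes, 5 in neurons than in microglia and 3 in astrocytes than in microglia, where 12.9%, 29.5% and 32.3% of all tested genes were called higher. None was called lower, as against 12.7%, 9.74% and 10.2% of all tested genes. Sez6 was at 23.6 ± 6.51, 5.27 ± 1.03 and 1.02 ± 0.588 TPM in neuron, astrocyte and microglia libraries (SD, n = 5 each), 3.84-fold higher in neurons than in astrocytes (adjusted p = 1.21e-06), 12.2-fold higher in neurons than in microglia (adjusted p = 1.73e-10) and 3.17-fold higher in astrocytes than in microglia (adjusted p = 3.47e-06). Sez6l2 was 5.26-fold higher in neurons than in astrocytes (adjusted p = 7.96e-05) and 2.77-fold higher in neurons than in microglia (adjusted p = 0.00386), and these folds were 9.59 and 5.26 without all libraries numbered 1 and 2. The cell adhesion molecule Chl1 was higher than in microglia by 4.46-fold in neurons (adjusted p = 1.4e-06) and by 2.95-fold in astrocytes (adjusted p = 5.4e-05). Jag1, a Notch ligand, was at 2.02 TPM in neurons and 0.174 TPM in microglia on average, and was 2.52-fold higher in neurons (adjusted p = 6.81e-07). Nrg1 was at 3.47 TPM in astrocytes and 0.116 TPM in microglia on average, and was 3.82-fold higher in astrocytes (adjusted p = 8.16e-08). At such low microglial levels the folds of Jag1 and Nrg1 come out too small. Bace1 itself was called in none of these comparisons.

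In the Itm2 group the third family member, Itm2a, followed neither Itm2b nor Itm2c. It was at 5172, 4574, 5962, 6919 and 4784 TPM in neuron libraries 1 to 5, at 478, 397, 611, 565 and 565 TPM in astrocyte libraries, and at 40.5, 67.3, 88.5, 36.4 and 35.4 TPM in microglia libraries. None of the 3 ranges overlapped. Itm2a was 10.5-fold higher in neurons than in astrocytes (adjusted p = 7.09e-10) and 10.2-fold higher in astrocytes than in microglia (adjusted p = 2.67e-10). Endothelial markers had the same order of cell types, and their part in the Itm2a result was not tested. Furin, the protease that trims Itm2b, was at 3.20 ± 0.515, 2.96 ± 1.16 and 3.81 ± 1.13 TPM in neuron, astrocyte and microglia libraries (SD, n = 5 each) and was called in none. Sppl2b, an intramembrane protease of Itm2b, was 2.18-fold higher in astrocytes than in microglia (adjusted p = 5.06e-05).

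**Figure D5:**
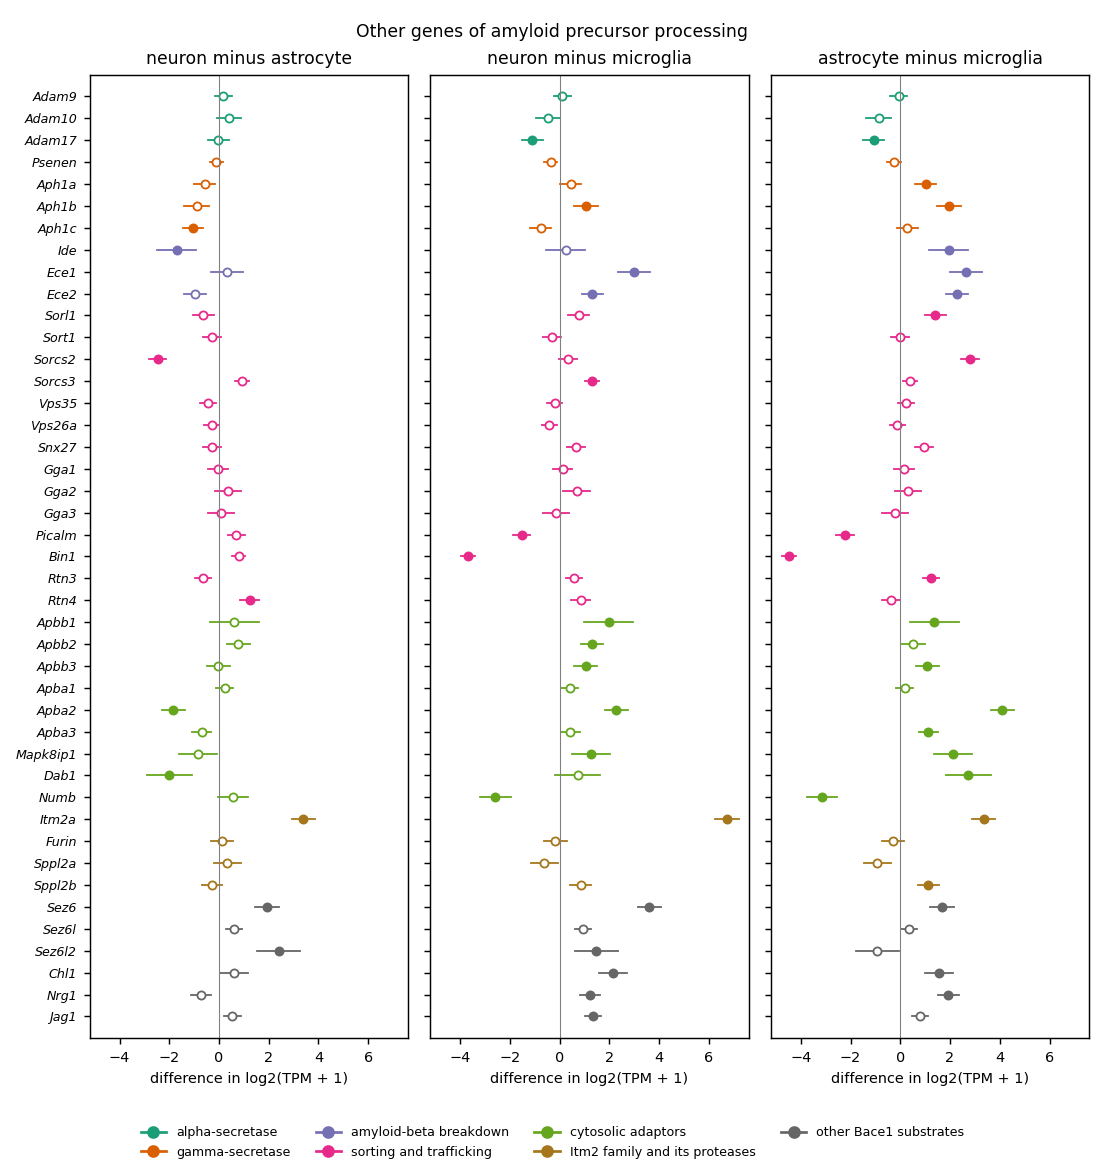
Log2 differences of tested pathway genes on the log2(TPM + 1) scale, by group and comparison; filled points were called. Bin1 and Numb lie furthest to the microglial side of both comparisons with microglia, and Itm2a lies furthest to the neuron side.

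The genes most like each of the 9 in pattern were found by Pearson r of log2(TPM + 1) over the 15 libraries, which fall into 3 cell types, so that r mainly reflects the differences between cell types already given. For App they were Myo1d (r = 0.974), Mob3b (0.971) and Txndc17 (0.964). For Aplp1 they were Pcbp4 (0.970), Syt11 (0.953) and Fez1 (0.950), and for Aplp2 Auts2 (0.991), Ednra (0.990) and Dcbld1 (0.990). For Bace1 they were Dgat2 (0.935), Mapt (0.913) and Rcan2 (0.909), and for Bace2 Eml2 (0.934), Map6 (0.932) and Nudc (0.926). Psen2 was like Ogdh (0.954) and Sf3b3 (0.904), and Ncstn like Ythdf2 (0.976), Dock4 (0.968) and Ufsp2 (0.967). Itm2b was most like Frrs1 (0.993), Rnaset2a (0.987) and Capza2 (0.986), and Itm2c like Txndc15 (0.988), Ssbp2 (0.988) and Oxa1l (0.981). Fez1 was at 109 TPM in neurons, 379 TPM in astrocytes and 104 TPM in microglia on average, and Syt11 at 64.8, 166 and 61.3 TPM, both highest in astrocytes as Aplp1 was. Frrs1 was at 3.04 TPM in neurons, 3.40 TPM in astrocytes and 19.2 TPM in microglia on average, and so shared the microglial excess of Itm2b at a far lower level.

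By location on mm10 with GENCODE vM21, App (ENSMUSG00000022892) spans chr16:84949685-85173766 on the minus strand, and Bace2 lies on the same chromosome at chr16:97356742-97442936 on the plus strand. Aplp1 spans chr7:30434982-30445535 on the minus strand. Aplp2 (chr9:31149557-31211815, minus strand) and Bace1 (chr9:45838580-45864399, plus strand) share chromosome 9. Psen2 (chr1:180227004-180263438, minus strand), Ncstn (chr1:172066013-172082795, minus strand) and Itm2c (chr1:85894281-85908675, plus strand) share chromosome 1. Itm2b spans chr14:73362226-73385289 on the minus strand.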

How the data were processed

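The 15 libraries were grouped by cell type from the labels' titles and characteristics. The values are TPM per gene as deposited by the authors in 1 table, all of whose columns were used. Per the labels' protocols, polyA RNA was amplified as cDNA and sequenced at an average of 30000000 reads of 2 × 150 nt per library. Trim Galore 0.6.4, STAR 2.7.1a, RSEM 1.2.28, DESeq2 1.36.0 and mm10 are named in the submitters' processing notes, with no role given. Each column summed to 1000000 TPM within rounding, so read depth and counting error cannot be had from the table, and whether counting used strand is not given in the sources used here. No pair of libraries held identical values. Pearson correlations of log2(TPM + 1) between libraries of one cell type were 0.933 to 0.989.

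With 1 mean for each cell type, log2(TPM + 1) of 13351 genes was modelled over all 15 libraries in limma 3.58.1 in R 4.3.3, with a variance trend and Benjamini-Hochberg adjustment over all tested genes. Shares were tested in Python 3.11.15 with scipy 1.17.1, with pandas 2.3.3, numpy 2.4.6 and matplotlib 3.10.9 for tables and figures. The script was tested on simulated data. Coordinates were looked up by gene ID in GENCODE vM21 (mm10), where 20499 of 20610 IDs matched, and promoters are of RefSeq on GRCm38.p6.

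The 9 genes, the pathway and marker lists and the tests were chosen with earlier results of these data known. Named genes are the 9, all alpha- and gamma-secretase genes, for each other pathway group up to 4 called genes per comparison with the largest difference and the 3 genes most like each of the 9. Results for some genes under this rule are not reported here. Furin, Mme and Sorcs1 were named outside this rule after their values were seen. Replicate numbers are shared by the cell types. Same-numbered libraries, after removal of the group means, correlated at 0.216 to 0.382 for neurons and microglia, at -0.0329 to 0.233 for neurons and astrocytes and at -0.0110 to 0.249 for astrocytes and microglia. By the rule that every pair must exceed 0.1, the numbers paired neuron and microglia libraries, from the data and not from the labels. The main limma fit and the free permutation tests did not use this pairing. It entered only the sign-flip tests of shares and the replicate block, which covered all 3 cell types. Libraries of different numbers were not correlated, and libraries 1 and 2 of both cell types were high in oligodendrocyte markers. The rule therefore cannot show that libraries of one number belong together. The alternatives comprised median-of-ratios scaling, a pseudocount of 0.1, quantile normalization, omission of the filter or one at 5 TPM, a replicate block, separate fits of 2 cell types, no variance trend, and libraries left out singly, by number (1 and 2) or in microglia only (1 and 2). Leaving out libraries for single pathway genes and pairing the shares by number were added after seeing the data.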

Additional observations from a re-analysis of the deposited data

How the results depend on the processing

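Of the log2 differences of the 9 genes under all alternatives, 630 kept their direction and side of the threshold, 10 were no longer called, 11 became called and 24 changed sign. The replicate block changed the call of none of the 9 genes (for App in neurons against microglia the difference stayed at 2.04), and the counts of called genes stayed within 1.5 times under it. Under the other alternatives counts of called genes moved by at most 1.5 times (the 9 genes had 3 calls in place of 2 and 6 in place of 4 without microglia libraries 1 and 2), except that quantile normalization gave 12 pathway genes for neurons against microglia. Every sign change concerned a difference that was not called. Between neurons and astrocytes these were Bace2 (-0.040), Psen2 (0.0053) and Itm2b (0.011) without libraries numbered 1 and 2, and Psen2 with median-of-ratios scaling (0.0027) and quantile normalization (0.036). Between neurons and microglia they were Aplp1 with median-of-ratios scaling (-0.046), Bace1 with quantile normalization (-0.027), and Psen2 with median-of-ratios scaling (-0.51), quantile normalization (-0.33) and without microglia libraries 1 and 2 (-0.070). Between astrocytes and microglia they were App without microglia libraries 1 and 2 (0.11) and without libraries numbered 1 and 2 (0.25), Bace1 with median-of-ratios scaling (-0.20) and quantile normalization (-0.25), and Psen2 with median-of-ratios scaling (-0.51), quantile normalization (-0.36) and without microglia libraries 1 and 2 (-0.0033). The cause was not tested. With single libraries left out, Psen2 ran from -0.17 to 0.062 for neurons against astrocytes and from -0.040 to 0.19 for neurons against microglia. Aplp1 ran from -0.33 to 1.11 and Itm2c from -0.26 to 0.015 for neurons against microglia, and Aplp1 from 0.91 to 2.35 for astrocytes against microglia.

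The Aplp1 difference between astrocytes and microglia also lost its call without the filter (adjusted p = 0.0563), with median-of-ratios scaling (0.211), with quantile normalization (0.075), in the fit of 2 cell types (0.0662) and without astrocyte library 3 (0.0524), astrocyte library 5 (0.0538) or microglia library 5 (0.0597). App was called lower in astrocytes than in microglia with median-of-ratios scaling (-1.05, adjusted p = 0.00189). For shares, the App difference between neurons and microglia ran from 13.7 to 19.4 points and the Bace1 difference between neurons and astrocytes from -5.64 to 0.728 points with single libraries left out. Without microglia libraries 1 and 2 the App share differed by 10.3 points between neurons and microglia. Without libraries numbered 1 and 2, 3 libraries against 3 cannot pass the exact permutation test. The App share then differed by 39.2, 13.3 and -25.9 points, the Bace1 share by 6.57, -33.5 and -40.1 points and the Itm2b share by 9.51, -5.68 and -15.2 points in the comparisons of neurons with astrocytes, of neurons with microglia and of astrocytes with microglia. With the replicate number as a block, a test added after seeing the data, the shares of App, Bace1 and Itm2b differed by 15.9, -34.9 and -5.37 points between neurons and microglia, and none could pass (sign-flip permutation test, p = 0.0625, the smallest for 5 pairs). Called differences of single pathway genes, recomputed with libraries left out as a further addition, kept their call in 829 cases and lost it in 20, all with the same direction.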
